A study of Mus musculus with 4 samples.

Results

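Venous endothelial cells of the tumour-bearing mouse lung were taken from the 2 CD45-negative libraries by a rule on detected genes, so the members were chosen by measured values, the detection of the genes named below in each cell. A gene counted as detected in a cell when it had at least 1 UMI (a unique molecular identifier, 1 counted RNA molecule). A cell was a member when Ptprc and Pdgfrb were not detected, Pecam1 or Cdh5 was detected, at least 2 of the 5 venous genes Slc6a2, Vcam1, Selp, Vwf and Prss23 were detected, and fewer than 2 of 5 arterial genes (Gja5, Bmx, Dkk2, Fbln5, Mgp) and fewer than 3 of 6 aerocyte genes (Car4, Ednrb, Fibin, Apln, Tbx2, Chst1) were detected. The rule found 596 cells, 307 at 0 Gy and 289 at 4 Gy, among 10292 barcodes of the 2 libraries and 25315 barcodes of the whole series. Of the endothelial cells, which met the rule's first conditions, 5375 came from 0 Gy and 3961 from 4 Gy. Cells below all 3 thresholds are called capillary here (4494 at 0 Gy and 3222 at 4 Gy), and cells over the aerocyte or arterial threshold alone are called aerocytes (496 and 355) or arterial cells (34 and 33).

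Pulmonary veins return oxygenated blood from the alveolar capillaries to the heart, and their endothelium is contiguous with the capillary bed, so cells between a venule and a capillary can carry genes of both. Venous identity is set in part by the nuclear receptor COUP-TFII, encoded by Nr2f2, while Notch signalling through Dll4, Notch1 and Hey1 favours arterial identity. In many organs venular endothelium is also the usual site at which leukocytes leave the blood. P-selectin (Selp) and von Willebrand factor (Vwf) are stored in Weibel-Palade bodies, Vcam1 binds integrins of leukocytes, and Slc6a2 takes up noradrenaline. Ionising radiation breaks DNA, which stabilises the transcription factor p53 and induces its target genes, among them the cell-cycle inhibitor Cdkn1a.

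The mice were 8-week-old C57BL/6 females that had received 150000 HKP1 cells, a mouse lung adenocarcinoma line, through the tail vein, so that tumours were present at both doses. After bioluminescence on day 6 they were divided into cohorts with similar tumour burden, and the lungs were given 0 Gy (mock) or 4 Gy over 3 days, from day 10 to day 12. Whether 4 Gy is the daily or the total dose is not spelled out in the labels. Lungs were harvested 24 to 48 h after dosing ended, from 4 mice per treatment, dissociated, and sorted by flow cytometry into DAPI-negative CD45-negative and CD45-positive cells for 10x Genomics 3′ libraries. Each dose and sort is 1 library, with no label that ties a cell to a mouse, so there was no replicate of either dose and no test of the dose was possible. The 95% intervals given below cover counting error only. Time of day at harvest is not given in the labels.

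The venous cells held 915615 UMIs at 0 Gy and 1043057 at 4 Gy, with a median per cell of 2235 and 2716. Capillary cells were shallower, with medians of 1801 and 1941.5 UMIs. The CD45-negative libraries held 14885765 and 12448164 UMIs and shared 12 barcode sequences. Scrublet's automatic doublet threshold marked 0.0669% and 0.0464% of barcodes and had not worked, and if the expected share of barcodes is taken by score, 12 venous cells at 0 Gy and 14 at 4 Gy fell in it, and they were kept.

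Most members met the venous threshold through Vwf and Prss23 alone. This combination accounted for 185 of 307 cells at 0 Gy (60.3%) and 199 of 289 at 4 Gy (68.9%). The other 122 cells at 0 Gy and 90 at 4 Gy had at least 1 UMI of Slc6a2, Vcam1 or Selp. Slc6a2 was detected in 80 and 58 members, most often together with both Vwf and Prss23 (52 and 30 cells with these 3 genes, and 17 and 16 with Vcam1 in addition). Selp was found in 3 cells at 0 Gy and 11 at 4 Gy, and all 5 genes together in 1 and 5 cells.

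Just inside the threshold, with exactly 2 venous genes, lay 230 cells at 0 Gy and 228 at 4 Gy, with median depths of 2218 and 2646 UMIs. Just outside it, with exactly 1, lay 1307 and 1053 capillary cells, with medians of 1951 and 2191. The defining genes differed in how far they were confined to members. Slc6a2 was detected in 0.0223% of capillary cells at 0 Gy and 0.0621% at 4 Gy. Vwf was detected in 18.8% and 16.7% of them, and Prss23, a serine protease, in 9.72% and 15.5%. Prss23 and Vcam1 were also frequent in the 46 and 29 cells with Pdgfrb but no Pecam1, Cdh5 or Ptprc (median depths 3898.5 and 6648 UMIs). Prss23 was detected in 37.0% and 55.2% of them and Vcam1 in 39.1% and 44.8%. Since these genes chose the members, their levels in venous cells are a description. In CPM, the UMIs of a gene summed over the members and scaled to a total of 1000000 UMIs, Vwf was 1344 at 0 Gy and 1205 at 4 Gy, Prss23 was 823 and 709, Slc6a2 was 307 and 244, Vcam1 was 143 and 190, and Selp, with 4 and 23 counts, was 4.37 and 22.1.

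Venous cells made up 5.71% of endothelial cells at 0 Gy (exact binomial 95% interval 5.11 to 6.37) and 7.30% at 4 Gy (6.51 to 8.15), a ratio of 1.28 (1.08 to 1.5). Venous cells were deeper at 4 Gy, and with cells thinned to 1000 UMIs the shares were 3.11% and 4.00%, a ratio of 1.29 (1.02 to 1.63). Shallower cells were left out of the thinned values (9 and 5 members, and 350 and 139 capillary cells), and 4758 cells at 0 Gy and 3547 at 4 Gy then met the endothelial conditions. Without thinning the ratio differed between subsets of the members, in a split chosen after the values were seen. Cells with Vwf and Prss23 only made up 3.44% of endothelial cells at 0 Gy and 5.02% at 4 Gy, a ratio of 1.46 (1.19 to 1.79). Cells with Slc6a2, Vcam1 or Selp made up 2.27% at both doses, a ratio of 1.0 (0.754 to 1.33). After thinning, both shares were higher at 4 Gy, 1.68% (1.34 to 2.09) against 2.17% (1.72 to 2.71) for Vwf and Prss23 only, and 1.43% (1.11 to 1.81) against 1.83% (1.42 to 2.33) for the others, with intervals that overlapped in each case. The ratios after thinning were 1.29 (0.932 to 1.79) and 1.28 (0.898 to 1.83), so the difference in ratio between the subsets was not seen at this fixed depth. Beside this, Prss23 was itself higher in capillary cells at 4 Gy, at 62.0 CPM against 92.2 and in 5.62% against 8.63% of thinned cells. How far that moved capillary cells over the threshold was not tested.

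**Figure D1:**
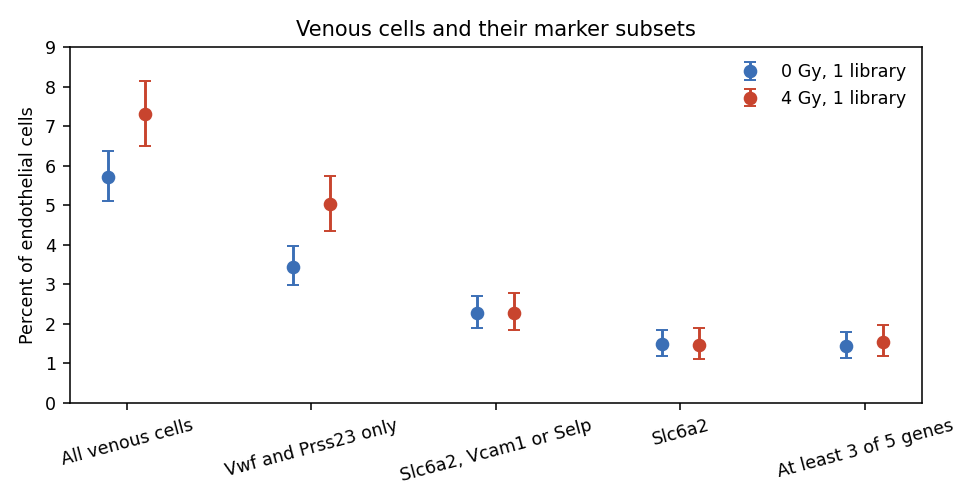
Share of endothelial cells (percent, y axis) that met the venous rule or a narrower version of it (x axis), at 0 Gy (blue) and 4 Gy (red), 1 library each; bars are exact binomial 95% intervals, counting error only. All venous cells and those with Vwf and Prss23 only were higher at 4 Gy (7.30% against 5.71%, and 5.02% against 3.44%), while cells with Slc6a2, Vcam1 or Selp stood at 2.27% at both doses.

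The name was then checked against 13 further venous genes that the rule did not use. These genes were counted in the same cells that the rule selected, so the comparison is a description. Cells with 2 or more genes of another cell type were left out of the subsets compared, which left 107 and 78 cells with Slc6a2, Vcam1 or Selp and 175 and 191 with Vwf and Prss23 only. Nr2f2, the venous transcription factor, was at 342 CPM at 0 Gy and 335 at 4 Gy in the first subset, at 41.1 and 42.2 in the second, at 34.6 and 24.4 in capillary cells with 1 venous gene, and at 8.91 and 9.37 in capillary cells with none. The second subset thus lay nearer to the capillary cells just below the threshold than to the first subset, and above the capillary cells with no venous gene. Nr2f2 was not confined to endothelial cells. It was detected in 76.1% at 0 Gy and 86.2% at 4 Gy of the cells with Pdgfrb but no Pecam1, Cdh5 or Ptprc. Among all venous members the shares were 18.2% and 20.1%.

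Other venous genes had the same order. Cytl1, a small secreted cytokine-like protein, was at 324 and 257 CPM in cells with Slc6a2, Vcam1 or Selp, and at 4.56 and 6.26 in cells with Vwf and Prss23 only. Bst1, an ectoenzyme of the cell surface, was at 167 and 214 CPM against 16.0 and 17.2, with 1.34 and 1.74 in capillary cells with no venous gene. Car8, a carbonic anhydrase-related protein, was at 189 and 156 against 11.4 and 18.8. Lrg1, a secreted glycoprotein, was at 335 and 394 against 84.4 and 51.6, with 20.2 and 15.3 in capillary cells with no venous gene. Ptgis, which makes prostacyclin, was at 164 and 382 against 52.5 and 90.7, with 13.1 and 24.6 in those cells. Ephb4, the venous receptor for ephrin-B2, was an exception, at 331 and 304 CPM against 224 and 232, and capillary cells with no venous gene were at 207 and 194. Ackr1 and Sele, which mark postcapillary venules of many organs, were nearly absent, with 2 and 7 counts of Ackr1 and 2 and 0 of Sele in all members.

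Genes of general capillary cells went the other way. Kit, the receptor of stem cell factor, was at 189 and 148 CPM in cells with Slc6a2, Vcam1 or Selp. It was at 488 and 435 CPM in cells with Vwf and Prss23 only, near the 505 and 383 of capillary cells with 1 venous gene. Gpihbp1, which carries lipoprotein lipase across capillary endothelium, was at 1549 and 1352 in the first subset, and at 2526 and 1804 in the second against 2423 and 1502 in capillary cells with 1 venous gene. Hilpda, which is tied to lipid droplets, was at 620 and 359 against 1232 and 821. Lyve1, a hyaluronan receptor, was an exception to this order, with 1442 and 2533 CPM in the first subset and 1150 and 2348 in the second. By these genes the label venous held for the cells with Slc6a2, Vcam1 or Selp. The larger number with Vwf and Prss23 only had levels of Nr2f2, Bst1, Lrg1 and Ptgis between those of the first subset and those of capillary cells with no venous gene, and levels of Kit near those of capillary cells. The results below are given for all members, as the rule chose them, and for subsets where these differed.

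**Figure D2:**
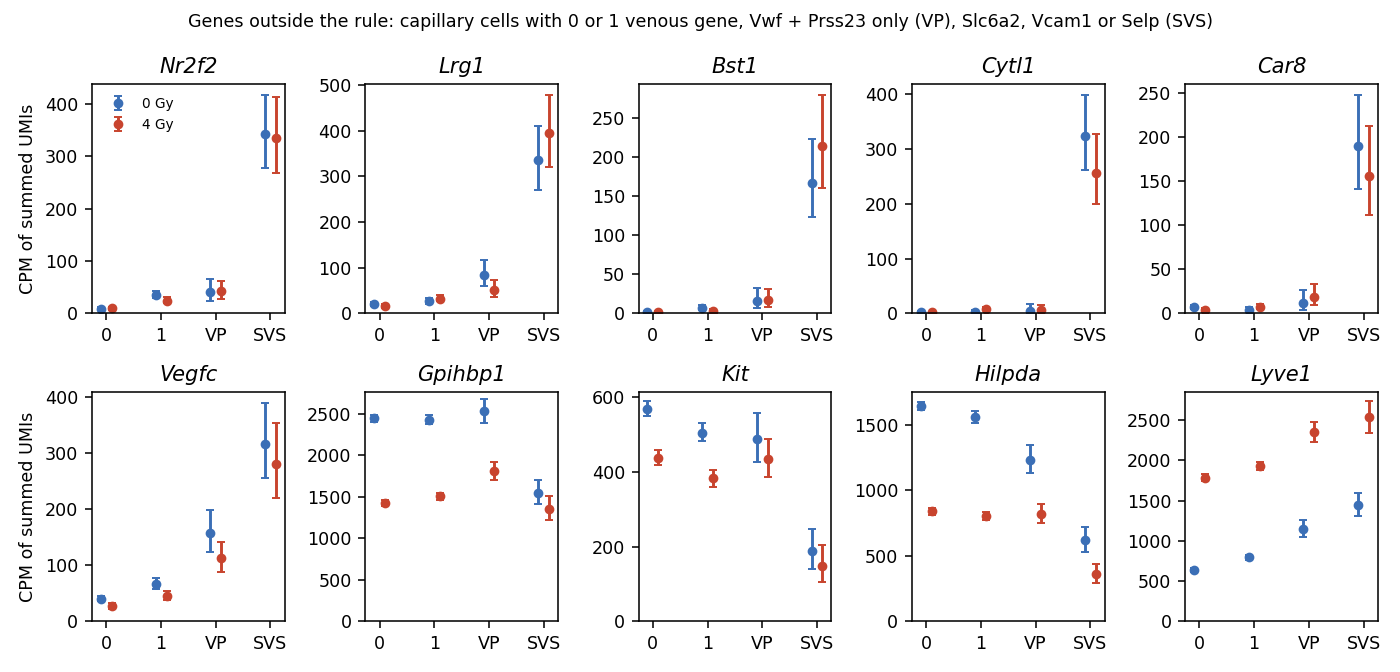
Level of 10 genes that the rule did not use (CPM of summed UMIs, y axis, scaled per gene) in capillary cells with 0 or 1 venous gene, venous cells with Vwf and Prss23 only (VP) and venous cells with Slc6a2, Vcam1 or Selp (SVS), at 0 Gy (blue) and 4 Gy (red); bars are Poisson 95% intervals. Nr2f2, Bst1, Cytl1 and Car8 are highest in SVS (Nr2f2 342 and 335 CPM against 41.1 and 42.2 in VP), and Kit and Hilpda are lowest there.

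Beyond the listed genes, those with the largest fold between the subsets at both doses were taken by a ranking added after the values were seen. Bgn, which encodes the matrix proteoglycan biglycan, was at 406 and 421 CPM in cells with Slc6a2, Vcam1 or Selp and at 50.2 and 70.4 in those with Vwf and Prss23 only. Plac8 was at 353 and 285 against 59.3 and 54.8, and Fstl1, a secreted follistatin-like glycoprotein, at 189 and 168 against 32.0 and 37.5. In the other direction the 12 leading genes were Dpp4, Kit, Casc4, Mapt, Hopx, Pdlim2, Lpl, Wfdc1, Hey1, Scn7a, Dll4 and Impdh1. Hey1, a Notch-induced repressor, was at 103 and 179 CPM in the first subset against 253 and 385 in the second. Dll4, a Notch ligand, was at 92.6 and 144 against 224 and 305.

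Of all endothelial classes, the genes highest in the venous cells as a whole, by the lower of the folds at both doses over the highest other class, included Vegfc, a ligand of the lymphatic growth factor receptor, at 179 CPM at 0 Gy and 150 at 4 Gy against 49.4 and 34.1 in capillary cells. Ackr3, a scavenging receptor for the chemokine CXCL12, was at 195 and 250 against 106 and 92.0. Lbp, which binds bacterial lipopolysaccharide, was at 205 and 179 against 68.2 and 77.4. Ptgs1, the constitutive cyclooxygenase, was at 171 and 169 against 60.6 and 97.9, and Samd5 was at 153 and 167 against 40.2 and 32.0. Capillary cells were not always the highest other class. Arterial cells were higher for Samd5, at 96.7 and 82.1 CPM, and at 4 Gy for Lbp, at 119, and Vegfc, at 59.7. These arterial values rest on 8 to 16 counts. The other 7 genes of this ranking were Serpinb1a, Tmem252, Tmsb10, Prcp, Kdsr, Anxa2 and Grrp1, and over the highest other endothelial class (on CPM + 10) the lower of each gene's folds at the 2 doses lay between 1.24 (Grrp1) and 2.29 (Vegfc).

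RNA of other cell types was present in some members. By 8 marker lists, 25 members at 0 Gy (8.14%) and 20 at 4 Gy (6.92%) had 2 or more genes of 1 other type. Epithelial genes accounted for 9 and 10 of them, erythroid genes for 8 and 6, mural genes for 8 and 4, fibroblast genes for 7 and 1, and mesothelial genes for 5 and 1, and a cell could count under several lists. The summed level of the 10 epithelial markers was 3166 CPM at 0 Gy and 663 at 4 Gy, that of 8 fibroblast markers 1060 and 422, that of 9 mural markers 239 and 85.3, that of 12 leukocyte markers 755 and 17.3, and that of 5 erythroid markers 5163 and 1770. That of 6 lymphatic markers went the other way, at 67.7 and 131 CPM. Of the leukocyte markers 7 had no count at either dose, and Lyz2 accounted for 687 of their 691 counts at 0 Gy. The cells with Vcam1 or Selp and no Slc6a2 held the highest share, 11 of 42 cells at 0 Gy and 7 of 32 at 4 Gy, against 4 of 80 and 5 of 58 among the cells with Slc6a2. Results on dose were therefore also computed in the 282 and 269 members without such cells.

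Across the 9529 genes with at least 20 counts in venous cells over both doses, 1177 were at least 1.5-fold higher at 4 Gy (12.4%) and 821 at least 1.5-fold lower (8.62%). In capillary cells, with more cells, the same fold gave 10.8% of 14764 genes higher and 6.24% lower, and in aerocytes 11.8% and 5.55% of 10292. These shares count every gene past the fold, whatever its counting error, and are the background against which the lists below are read. The median log2 ratio over all genes of venous cells was 0.043, on CPM + 5.

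Most measured genes induced by p53 were higher at 4 Gy. Of 34 listed targets 27 were measured, 21 were at least 1.5-fold higher (against 12.4% of all genes) and 1, Rrm2b, was lower, with a median log2 ratio of 1.171. Their summed level was 1652 CPM at 0 Gy and 5048 at 4 Gy, a ratio of 3.05 (2.88 to 3.24). Without the members that carried markers of another cell type, 18 of 25 were higher (against 12.1% of the genes measured in them) and 2 lower (against 8.17%), with a median of 1.255. Among the 16 measured in cells with Slc6a2, Vcam1 or Selp and no other cell's markers, 9 were higher (against 13.3%) and 1 lower (against 11.8%), with a median of 0.903, and among the 23 measured in cells with Vwf and Prss23 only, 17 were higher (against 13.5%) and 1 lower (against 9.64%), with a median of 1.184.

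Cdkn1a, which encodes the cyclin-dependent kinase inhibitor p21, had 297 counts at 0 Gy and 1861 at 4 Gy, or 324 and 1784 CPM, a ratio of 5.50 (4.86 to 6.24). It was detected in 38.1% of venous cells at 0 Gy and 81.7% at 4 Gy, and in 21.1% and 63.4% of cells thinned to 1000 UMIs. In the cells with Pdgfrb but no Pecam1, Cdh5 or Ptprc the shares were 10.9% and 55.2%. The difference was present in both subsets, each without cells with another cell's markers. Cdkn1a was at 260 and 1586 CPM in cells with Slc6a2, Vcam1 or Selp and at 390 and 2079 in cells with Vwf and Prss23 only. In capillary cells the levels were 336 and 2296 CPM, so that the venous ratio was 0.805 times the capillary one (0.707 to 0.918), a difference larger than counting error that was not tested across animals. In aerocytes, where Cdkn1a was already at 1070 CPM at 0 Gy, it was at 4300 at 4 Gy.

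Among the effectors of cell death, Bax, which permeabilises the outer mitochondrial membrane, was at 178 CPM at 0 Gy and 656 at 4 Gy, a ratio of 3.68 (3.10 to 4.4). Bbc3, which encodes PUMA, was at 41.5 and 97.8 CPM. Eda2r, which belongs to the TNF receptors, had 0 counts at 0 Gy and 37 at 4 Gy. Its ratio was 10.8 with 3 counts in place of the 0, and its counting interval began at 8.37. Tnfrsf10b, the mouse death receptor for TRAIL, was at 16.4 and 43.1 CPM. Fas, a death receptor that is also on the list, stood at 227 and 232 CPM, a ratio of 1.02 (0.845 to 1.24). In the opposing group, Bcl2l1, whose main product BCL-XL prevents mitochondrial permeabilisation, was at 155 and 403 CPM, a ratio of 2.60 (2.14 to 3.16). Of the 13 measured genes of the BCL2 and caspase list, 2 were at least 1.5-fold higher (against 12.4% of all genes) and 1 lower (against 8.62%). The lower gene, Bik, was at 74.3 and 48.9 CPM, and the list had a median log2 ratio of -0.035. With members carrying another cell's markers left out, 2 were higher (against 12.1%) and 3 lower (against 8.17%), with a median of -0.174. In the cells with Slc6a2, Vcam1 or Selp among these, 1 of 9 was higher (against 13.3%) and 5 were lower (against 11.8%). The median over these 9 was -0.567, against 0.036 over the 13 measured in those with Vwf and Prss23 only. These medians thus cover different sets of genes. With the cells that carried another cell's markers kept, 12 genes were measured in the cells with Slc6a2, Vcam1 or Selp. Of these 12, 2 were higher (against 15.1%) and 4 lower (against 10.9%), with a median of -0.011.

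Targets that act in feedback, repair and metabolism were also higher. Mdm2, the ubiquitin ligase that degrades p53, was at 43.7 CPM at 0 Gy and 103 at 4 Gy, a ratio of 2.35 (1.62 to 3.47). Phlda3, a repressor of AKT signalling, was at 129 and 573 CPM, and its ratio of 4.45 (3.65 to 5.47) was lower than the capillary ratio of 6.93. Ccng1, which encodes cyclin G1, was at 16.4 and 85.3, Trp53inp1 at 18.6 and 112, and Sesn2, a stress-induced regulator of mTORC1, at 8.74 and 47.0, a ratio of 5.38 that was 9.03 (3.29 to 34.6) without members with another cell's markers. Polk, a translesion DNA polymerase, was at 28.4 and 64.2. Of the DNA repair genes on the list, Xpc had a ratio of 0.988 (0.596 to 1.64) and Ercc5 of 1.27 (0.696 to 2.37). Aen, an apoptosis-enhancing nuclease, had 1 count at 0 Gy and 24 at 4 Gy, a ratio of 21.1 (3.44 to 866).

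Gdf15, a secreted stress cytokine, was at 26.2 CPM at 0 Gy and 178 at 4 Gy, a ratio of 6.80 (4.43 to 10.9), and in capillary cells it was at 4.01 and 221 CPM, a ratio of 55.1. Of its 24 counts at 0 Gy, 79.2% lay in 1 venous cell, and it was detected in 3 of 307 venous cells at 0 Gy against 83 of 289 at 4 Gy. The shares of cells were close to those of capillary cells, 0.977% and 28.7% against 0.423% and 24.4%.

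**Figure D3:**
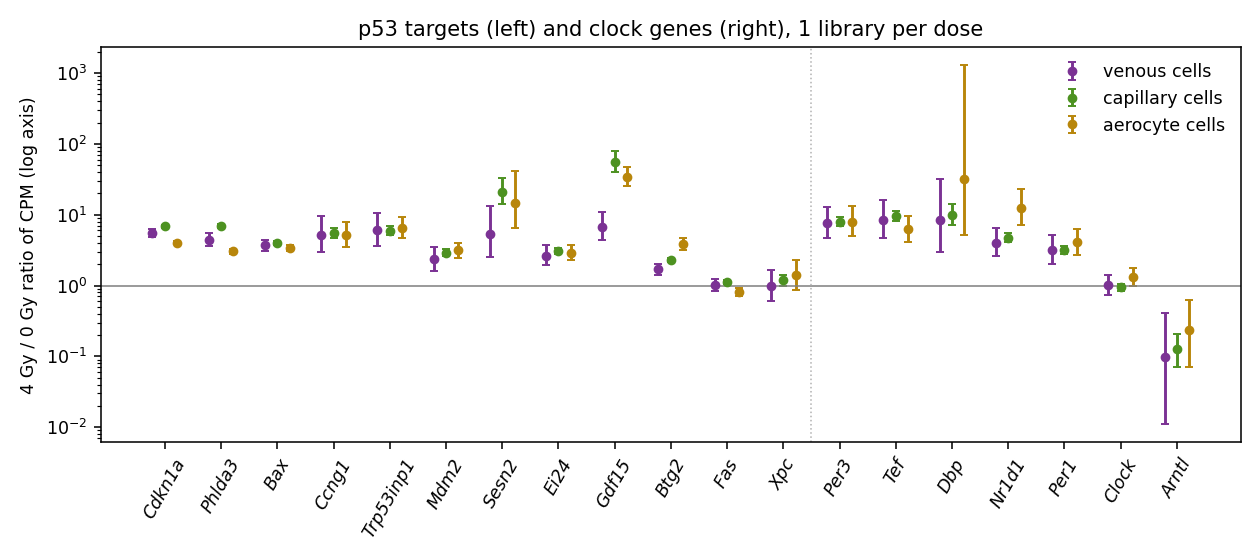
Ratio of CPM at 4 Gy over 0 Gy (log axis) of p53 targets (left of the dotted line) and circadian genes (right of it) in venous cells (purple), capillary cells (green) and aerocytes (gold), with exact 95% intervals of counting error. Most p53 targets lie above 1 in all 3 classes, the venous Cdkn1a ratio is 5.50, Fas and Xpc lie near 1 in venous cells, and Arntl lies below 1 in all 3 classes.

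The upstream sequences of Cdkn1a and Bax are shown because these genes had the most counts of the p53 targets at 4 Gy, and those of Per3 and Tef because they led the circadian genes described next. Each is the 250 bases before the annotated start from RefSeq (GRCm38.p6), 5′ to 3′ on the gene's strand, with matches in capitals to the p53 decamer (Cdkn1a, Bax), the D-box TTATGTAA or TTACATAA (Per3) or the E-box CACGTG (Tef), each searched on both strands. Cdkn1a lies at chr17:29090729-29090978 (plus strand), Bax at chr7:45466899-45467148 (minus strand), Per3 at chr4:151044666-151044915 (minus strand) and Tef at chr15:81802423-81802672 (plus strand).
Cdkn1a: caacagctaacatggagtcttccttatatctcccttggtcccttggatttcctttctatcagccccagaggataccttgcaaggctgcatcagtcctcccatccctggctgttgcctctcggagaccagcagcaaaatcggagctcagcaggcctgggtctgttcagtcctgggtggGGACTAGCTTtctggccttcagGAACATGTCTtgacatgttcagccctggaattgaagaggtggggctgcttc
Bax: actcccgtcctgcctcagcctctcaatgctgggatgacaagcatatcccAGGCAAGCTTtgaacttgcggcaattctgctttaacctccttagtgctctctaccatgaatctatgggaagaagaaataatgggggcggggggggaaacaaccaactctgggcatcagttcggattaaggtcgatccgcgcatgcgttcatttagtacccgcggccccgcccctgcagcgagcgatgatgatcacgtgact
Per3: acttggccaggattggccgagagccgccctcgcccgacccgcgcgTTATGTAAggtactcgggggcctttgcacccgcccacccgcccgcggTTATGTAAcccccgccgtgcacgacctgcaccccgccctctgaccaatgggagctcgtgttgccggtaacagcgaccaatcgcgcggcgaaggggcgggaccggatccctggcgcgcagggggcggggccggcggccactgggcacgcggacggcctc
Tef: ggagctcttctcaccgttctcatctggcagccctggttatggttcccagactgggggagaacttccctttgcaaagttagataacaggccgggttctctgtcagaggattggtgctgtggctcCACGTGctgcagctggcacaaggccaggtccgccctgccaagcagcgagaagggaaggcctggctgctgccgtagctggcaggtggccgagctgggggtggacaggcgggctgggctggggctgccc
For the counts, each window ran from 250 bases before the start to 50 after it. The Cdkn1a window held 2 p53 decamers and a second annotated start of the gene held 0. Of the 34 p53 targets 26 were matched to RefSeq, and 11 of their 35 windows (31.4%) held the decamer, against 8.36% of all 32851 windows. The Per3 window held 2 D-boxes, which 0.938% of all windows have. An E-box was in 6 of 19 windows (31.6%) of the 14 matched circadian genes, against 7.15% of all. A match says only that the letters are there.

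Genes of the circadian clock also differed between the libraries. Of 16 listed genes 14 were measured, 10 were at least 1.5-fold higher at 4 Gy (against 12.4% of all genes) and 1 was lower, with a median log2 ratio of 1.173. The same 14 genes had a median of 1.808 in capillary cells, and aerocytes had 12 of 14 higher (against 11.8% of their genes). Without members with markers of another cell type, 8 of 11 were higher (against 12.1%) and 0 lower (against 8.17%), with a median of 1.793. The 1 lower gene was Arntl, and Clock, Ciart and Bhlhe40 passed the fold in neither direction. Per3, a period gene that represses the clock's activators, was at 21.8 CPM at 0 Gy and 165 at 4 Gy, a ratio of 7.55 (4.74 to 12.7). Tef, an output factor that binds D-boxes, was at 14.2 and 119 CPM, a ratio of 8.37 (4.72 to 16.2), and Dbp, another such factor, had 4 counts and 38. Nr1d1, which encodes the repressor REV-ERBα, was at 28.4 and 115 CPM, and Per1 at 27.3 and 87.2. Arntl, which encodes the activator BMAL1, had 18 counts at 0 Gy and 2 at 4 Gy, a ratio of 0.0975 (0.011 to 0.407). Clock, its partner, stood at 77.5 and 79.6 CPM, the repressor Ciart at 47.0 and 47.9, and the repressor Bhlhe40 at 34.9 and 37.4. Each dose was harvested as 1 pool at a time of day that the labels do not state, so dose and time of harvest cannot be told apart in these genes.

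When all genes were ranked by the bound of their ratio nearest 1, the extremes were led by single cells. Of the 12 genes ranked highest at 4 Gy, 7 had more than 50% of their counts over both doses in 1 cell, and of the 12 ranked lowest, 10 had. Ager, a marker of alveolar type 1 cells, had 12 counts at 0 Gy and 187 at 4 Gy, 98.4% of the latter in 1 cell. Sftpc, the surfactant protein of alveolar type 2 cells, had 2313 counts at 0 Gy, 98.6% of them in 1 cell, and 17 at 4 Gy. Scgb1a1, the secretory protein of club cells, had 17 and 169 counts, 73.4% of the latter in 1 cell, and 8 and 155 without members with another cell's markers. Myl7, an atrial myosin light chain, had 0 and 53, all in 1 cell. Also led by few cells were Sftpa1, Sftpb, Sftpd, Cxcl15, Napsa, Slc34a2, Lyz2, Pf4, C4b, Chil1 and Gpc3 among the lower, and Ccl21a, Fxyd3, Tff2 and Sprr2a1 among the higher. The remaining genes of the top 12 were Cdkn1a, Eda2r, Gdf15, Per3 and Tef.

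A further ranking, added after these values were seen, was therefore limited to the 5112 genes detected in at least 10% of members at 1 dose with at most 20% of their counts in 1 cell, and ordered in the members without another cell's markers. Its 20 highest were p53 targets or clock genes for the most part, and others came from neither list. Exoc4, a subunit of the exocyst complex that tethers secretory vesicles, was at 42.6 CPM at 0 Gy and 191 at 4 Gy, a ratio of 4.48 (3.17 to 6.49), and at 45.6 and 214 in capillary cells. Spry1, an inhibitor of receptor tyrosine kinase signalling, was at 13.1 and 62.3 CPM. Fkbp5, a glucocorticoid-induced co-chaperone, was at 10.9 and 47.0 CPM, a ratio of 4.30 (2.15 to 9.52) that was 6.58 (2.6 to 21.3) without members with another cell's markers. Rnf169, a ubiquitin ligase that acts at DNA breaks, was at 16.4 and 57.5 CPM, and Mylip, which degrades the LDL receptor, at 8.74 and 39.3.

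The 20 ranked lowest held several surface and matrix genes. Mmp15, a membrane-bound metalloproteinase, was at 92.8 CPM at 0 Gy and 23 at 4 Gy, a ratio of 0.248 (0.151 to 0.394), and at 118 and 34.4 in capillary cells. Aplnr, the apelin receptor, was at 133 and 50.8 CPM, a ratio of 0.381 (0.271 to 0.531). Tspan8, a tetraspanin, was at 313 and 152 CPM, and at a ratio of 0.330 without the members that carried another cell's markers. Cthrc1, a secreted collagen triple helix protein, was at 63.3 and 24.0 CPM against 5.45 and 2.80 in capillary cells. Hmcn1, an extracellular matrix protein of the hemicentin family, was at 637 and 407, Tmsb10, an actin-binding thymosin, at 1192 and 818, and Grrp1 at 234 and 134. Amigo2, an adhesion protein that marked the cells with Slc6a2, Vcam1 or Selp, was at 107 and 62.3 CPM, a ratio of 0.582 (0.419 to 0.805). Within that subset, without cells with another cell's markers, it was at 253 and 168.

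**Figure D4:**
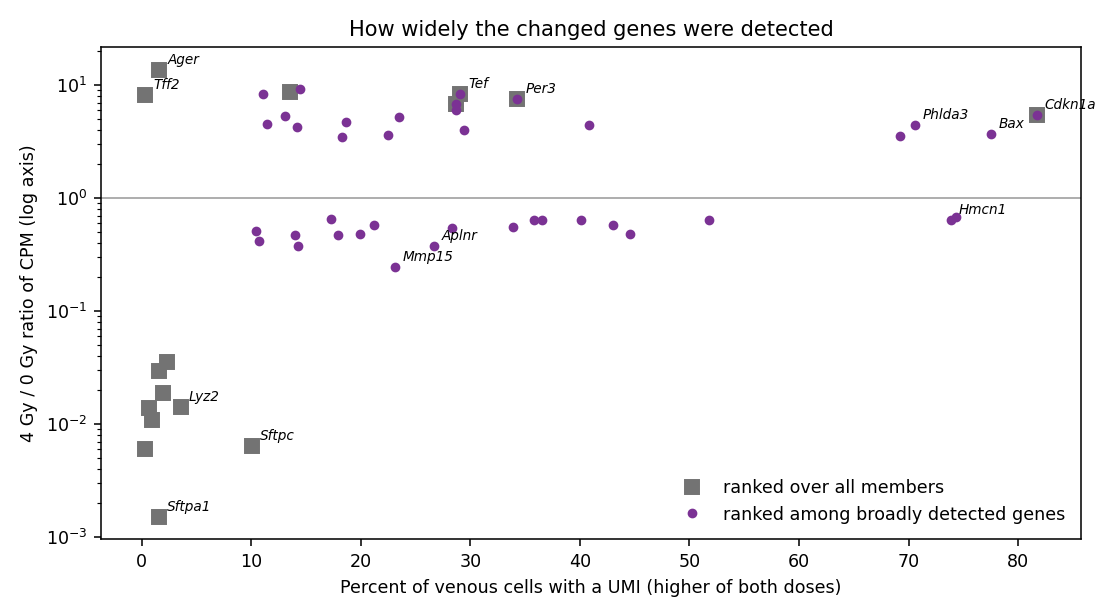
Ratio of CPM at 4 Gy over 0 Gy (log axis) against the share of venous cells with at least 1 UMI of the gene (percent, the higher of both doses), for genes ranked over all members (grey squares) and among broadly detected genes (purple points); genes with a count of 0 at 1 dose are left out. Sftpc, Sftpa1, Lyz2, Ager and Tff2 sit at the left edge or near it, while Cdkn1a (81.7% of cells at 4 Gy), Bax and Phlda3 are far to the right.

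Genes that set the venous endothelium's hold on platelets and coagulation were measured for 17 of 20 listed. Of these, 4 were at least 1.5-fold higher, against 12.4% of all genes, and 4 lower, against 8.62%. Without the members with another cell's markers, 5 of 15 were higher (against 12.1%) and 0 lower (against 8.17%), with a median log2 ratio of 0.202. Mmrn2, which encodes the endothelial matrix protein multimerin 2, was at 157 CPM at 0 Gy and 472 at 4 Gy, a ratio of 3.00 (2.49 to 3.64), close to the 2.85 of capillary cells. Edn1, which encodes the vasoconstrictor endothelin 1, was at 192 and 310 CPM, a ratio of 1.61 (1.34 to 1.95). Pros1, the anticoagulant protein S, was at 69.9 and 114, and Rab27a, a GTPase of Weibel-Palade body maturation, at 39.3 and 66.2. Thbd, the thrombin receptor that activates protein C, stood at 1228 and 1316 CPM, a ratio of 1.07 (0.990 to 1.16). Gas6 was at 144 and 175 CPM in all members and at a ratio of 2.68 without those with another cell's markers.

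Among adhesion genes used by leukocytes, of 11 measured outside the rule, 2 were at least 1.5-fold higher (against 12.4% of all genes) and 1 lower (against 8.62%). Their median log2 ratio was 0.050. Without members with another cell's markers 2 of 10 were higher (against 12.1%) and 0 lower (against 8.17%), with a median of -0.085. Icam1, the inducible ligand of leukocyte integrins, was at 25.1 CPM at 0 Gy and 61.4 at 4 Gy, a ratio of 2.44 (1.5 to 4.12). Cd34, a sialomucin, was at 108 and 168 CPM. Icam2, which endothelium makes at rest, stood at 876 and 861, a ratio of 0.983 (0.893 to 1.08), while in capillary cells it was at 1148 and 854. Of 13 chemokine and cytokine genes 1 was higher (against 12.4%) and 4 lower (against 8.62%). Without members with another cell's markers 2 of 10 were higher (against 12.1%) and 1 lower (against 8.17%). Cxcl12, which retains CXCR4-bearing cells, was at 704 and 475 CPM, a ratio of 0.674 (0.598 to 0.759). Its scavenger Ackr3 was compared in the subsets without cells with another cell's markers. It was at 377 CPM at 0 Gy and 577 at 4 Gy in the cells with Slc6a2, Vcam1 or Selp, a ratio of 1.53 (1.18 to 1.98). In cells with Vwf and Prss23 only it was at 153 and 139, a ratio of 0.911 (0.656 to 1.27), and in capillary cells with no venous gene at 102 and 85.5.

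Antigen presentation and interferon genes lay mostly below 1. Of 18 measured type I interferon-induced genes, 0 were at least 1.5-fold higher (against 12.4% of all genes) and 9 lower (against 8.62%). Their median log2 ratio was -0.539. Without members with another cell's markers 0 of 17 were higher (against 12.1%) and 5 lower (against 8.17%), and the median was -0.406. Of 13 measured in the cells with Slc6a2, Vcam1 or Selp among these, 1 was higher (against 13.3%) and 2 lower (against 11.8%). Of 15 in those with Vwf and Prss23 only, 1 was higher (against 13.7%) and 5 lower (against 8.82%). The medians in the 2 subsets were -0.155 and -0.198. With the rule applied without Vwf, which left 94 members at 0 Gy and 72 at 4 Gy, the median was 0.059. Isg15, a ubiquitin-like modifier, was at 229 CPM at 0 Gy and 105 at 4 Gy, with 31.9% of its 0 Gy counts in 1 cell. Its ratio of 0.456 was 0.594 without members with another cell's markers. Ifi27l2a was at 186 and 51.8 CPM, a ratio of 0.279 that was 0.125 without those members, and Ifih1, the cytosolic RNA sensor MDA5, at 52.4 and 26.8. Bst2, which encodes tetherin, stood at 1041 and 1043. All 7 MHC class II genes had ratios below 1 over all members, from 0.702 for H2-Ab1 (743 and 522 CPM) to 0.977 for their transactivator Ciita (1.02 without those members), and none passed the 1.5-fold limit. The invariant chain Cd74 was at 2074 and 1627 CPM. Capillary cells had a median of -0.262 over the same 7 genes, against -0.349 in all venous cells and -0.232 in those without another cell's markers.

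Of 13 genes that act on vascular tone, amines and prostaglandins, 1 was at least 1.5-fold higher (against 12.4% of all genes) and 2 were lower (against 8.62%). Without members with another cell's markers 2 were higher (against 12.1%) and 2 lower (against 8.17%). Ptgis was at 178 and 179 CPM in all members, but 24.5% of its 0 Gy counts lay in 1 cell. In the cells with Slc6a2, Vcam1 or Selp and no other cell's markers it was at 164 CPM at 0 Gy and 382 at 4 Gy, a ratio of 2.33 (1.63 to 3.39), and in capillary cells with no venous gene at 13.1 and 24.6, a ratio of 1.88 (1.40 to 2.54). Maoa, a monoamine oxidase, was at 117 and 77.7 CPM, a ratio of 0.665 (0.492 to 0.895). Ace, the angiotensin-converting enzyme, was at 952 and 1261 CPM and Slco2a1, the prostaglandin transporter, at 797 and 1107. Calcrl, the receptor subunit for CGRP and adrenomedullin, stood at 2351 and 2306.

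Of 12 arterial genes outside the rule, 4 were at least 1.5-fold higher (against 12.4% of all genes) and 0 lower (against 8.62%). Their median log2 ratio was 0.228. Hey1 was at 174 CPM at 0 Gy and 309 at 4 Gy, a ratio of 1.78 (1.47 to 2.16), and Dll4 at 151 and 231, a ratio of 1.53 (1.24 to 1.90). Both were also higher in capillary cells at 4 Gy, with ratios of 1.5 and 1.29. Within each venous subset both genes were higher at 4 Gy too, at the levels given above. The subset with Vwf and Prss23 only, where both were highest, was a larger part of the members at 4 Gy. Of 11 measured venous genes outside the rule, 0 were higher (against 12.4%) and 1, Amigo2, was lower (against 8.62%), with a median of -0.240. Without members with another cell's markers, Ptgis passed the fold with a ratio of 1.81 and Cytl1 with one of 0.604. Nr2f2 stood at 142 and 135 CPM, a ratio of 0.952 (0.745 to 1.22). In the BMP and TGF-β list 1 of 17 genes was higher (against 12.4%) and 1 lower (against 8.62%). The higher one was Smad6, an inhibitor of BMP signalling, at 346 and 525 CPM (a ratio of 1.52). The lower one was the ligand Tgfb3, with 17 counts and 5. In the members without another cell's markers 0 of 16 were higher (against 12.1%) and 2 lower (against 8.17%), and Smad6 had a ratio of 1.49. Flt1, a decoy receptor of VEGF, was at 686 and 945 CPM and Flt4, the receptor of VEGF-C, at 38.2 and 68.1, a ratio of 1.78 that was 1.46 without those members. Of the 12 junction genes 0 passed the fold in either direction in all members, against 21.0% of all genes. Without those with another cell's markers 0 were higher (against 12.1%) and 1 was lower (against 8.17%). In the cells with Slc6a2, Vcam1 or Selp among these, 1 was higher (against 13.3%) and 2 were lower (against 11.8%). Cldn5, the main claudin of endothelium, stood at 3631 and 3903.

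Capillary genes carried by the venous cells differed in their direction. Lyve1 was at 1079 CPM at 0 Gy and 2220 at 4 Gy, a ratio of 2.06 (1.91 to 2.22), and at 691 and 1841 in capillary cells, a ratio of 2.67. It was detected in 78.2% and 88.9% of venous cells and in 59.4% and 74.3% after thinning. Of the cells with Pdgfrb but no Pecam1, Cdh5 or Ptprc, 0 of 46 had it at 0 Gy, which allows up to 6.52%, and 3.45% at 4 Gy. Gpihbp1 was at 1833 and 1495, a ratio of 0.816 (0.761 to 0.874), while in capillary cells it was at 2434 and 1455, a ratio of 0.598. The venous ratio was 1.36 times the capillary one (1.27 to 1.47). Hilpda was at 861 and 627 in venous cells against 1614 and 825, and Sema3c, a semaphorin, at 1245 and 1042 against 1867 and 1168. In each of these 3 genes the level of the capillary cells at 4 Gy lay nearer to that of the venous cells than at 0 Gy. The mix of the venous subsets differed between the doses, however. Cells with Slc6a2, Vcam1 or Selp held 433960 UMIs at 0 Gy and 367835 at 4 Gy, and cells with Vwf and Prss23 only 481655 and 675222. The part of this mix in the venous ratios was not tested.

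Of 16 measured early-response genes, 9 were at least 1.5-fold higher (against 12.4% of all genes) and 1 was lower (against 8.62%). The median log2 ratio was 0.531 in all members and 0.633 without those with another cell's markers. In capillary cells the same genes had a median of 0.431. Of 13 measured in cells with Slc6a2, Vcam1 or Selp and no other cell's markers, 7 were higher (against 13.3%) and 0 lower (against 11.8%). Of 11 in those with Vwf and Prss23 only, 4 were higher (against 13.7%) and 0 lower (against 8.82%). The medians in the 2 subsets were 0.65 and 0.284. Klf4, a flow-responsive transcription factor, was at 449 CPM at 0 Gy and 757 at 4 Gy, a ratio of 1.69 (1.5 to 1.91). Ier5 was at 164 and 317 CPM, and Jund, an AP-1 subunit, at 471 and 740. Nr4a1, an orphan nuclear receptor, had 2 counts and 21, a ratio of 9.22 (2.25 to 81.1). The cells were dissociated and sorted before capture, and the part of those steps in these genes was not tested. Ccn1 and Ccn2, matricellular proteins induced through YAP, were at 38.2 and 98.7 CPM and at 57.9 and 123. Their capillary ratios of 6.85 and 4.21 were larger than the venous ratios of 2.58 and 2.12.

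Of 10 measured detoxification genes 4 were higher (against 12.4% of all genes), 2 were lower (against 8.62%) and 4 passed the fold in neither direction. The 2 lower ones, Gsta4 and Cbr2, had 70.0% and 75.0% of their 0 Gy counts in 1 cell. Ephx1, the microsomal epoxide hydrolase, was at 135 CPM at 0 Gy and 477 at 4 Gy, a ratio of 3.53 (2.89 to 4.33). Ces2e, a carboxylesterase, was at 13.1 and 62.3, Dcxr, a carbonyl reductase, at 28.4 and 104, and Thyn1 at 26.2 and 69.0. Among members without another cell's markers 4 of 8 were higher (against 12.1%) and 0 lower (against 8.17%), with a median log2 ratio of 0.747. The capillary ratios of Ces2e and Dcxr, 18.8 and 8.26, were larger than the venous ratios of 4.75 and 3.65. Of the 22 matrix genes, Timp3, an inhibitor of metalloproteinases, was at 73.2 and 156 CPM, a ratio of 2.14 (1.60 to 2.88). Of the matrix genes 6 were lower (against 8.62% of all genes). Without the members with another cell's markers 2 of 17 were lower (against 8.17%), Mmp15 and Hmcn1. Col4a1, the basement membrane collagen, stood at 408 and 476 CPM.

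**Figure D5:**
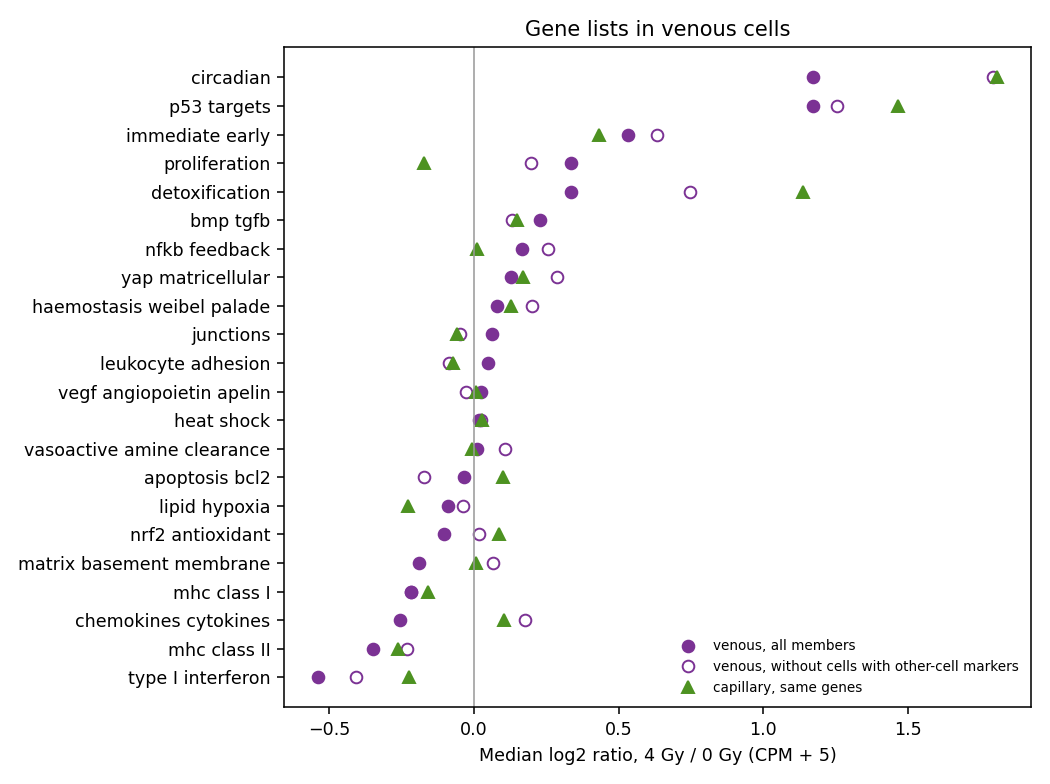
Median log2 ratio of 4 Gy over 0 Gy (CPM + 5, x axis) for each of the 22 gene lists (y axis), over genes with at least 20 counts, in all venous cells (filled circles), venous cells without markers of another cell type (open circles) and the same genes in capillary cells (triangles). The circadian and p53 lists stand at 1.173 and 1.171 in venous cells, and type I interferon genes are lowest at -0.539.

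Genes whose ratio lay farthest from that of capillary cells were led by single cells as well when all genes were ranked. They were Saa3, Tff2, Ccl21a, Mki67, Scgb3a1 and Fabp4 above it, 4 of them with more than 50% of their counts over both doses in 1 cell, and Sftpc, Sftpa1, Pf4, Sftpd, Mt1 and Lyz2 below it, all 6 of which had. The same ranking among the broadly detected genes gave others. Dok1, an adaptor of tyrosine kinase signalling, was at 10.9 CPM at 0 Gy and 38.3 at 4 Gy in venous cells and at 26.4 and 23.9 in capillary cells. Sema7a, a membrane-anchored semaphorin, was at 14.2 and 46.0 against 49.8 and 59.5, and Trpm4, a cation channel, at 17.5 and 41.2 against 36.0 and 33.2. In all 3 the venous level at 0 Gy was the lowest of the 4 values and rested on 10 to 16 counts. On the other side, besides Gdf15, Ces2e and Ccn1, was Mgst1, a microsomal glutathione transferase, at 137 and 63.3 against 29.2 and 38.2, and at 68.1 and 42.4 CPM without members with another cell's markers. Fth1, the ferritin heavy chain, was at 2795 and 1448 against 1362 and 1287, but its venous ratio of 0.518 was 0.881 without the members with another cell's markers.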

How the data were processed

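The authors deposited 1 table per library of log2 values, cells by 20640 genes. In each cell these were log2(CPM + 1), and whole reads (UMIs) were recovered from their steps (99.9994% to 99.9996% of values whole within 0.02). The design had assumed count tables, and these recovered counts were used. The submitters' processing notes list STAR, Partek, Seurat and the mm10 build, and what each did is not known here. Mice, lungs and sorts are as the labels' protocols state.

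The members and gene lists were chosen with earlier results of these data known. UMIs were summed over member cells per library and given as CPM with exact Poisson 95% intervals, and ratios with exact conditional binomial intervals, for genes with at least 20 counts. Shares have exact binomial (Clopper-Pearson) intervals. List medians are log2 of CPM + 5. With 1 library per dose no test was run. Named genes were the 12 highest and 12 lowest by the bound nearest 1, the 12 with the largest fold over the other endothelial classes (CPM + 10, detected in 20% of cells), 2 to 6 per list, and the 6 farthest from capillary cells in each direction. The split of members and the ranking of broadly detected genes were added after the values were seen. Doublets were scored with Scrublet in scanpy 1.11.5 and kept, and removed in an alternative. Other alternatives changed the rule, depth, filter, pseudocount and scaling. The sums were tested on simulated data. Python 3.11.15, numpy 2.4.6, scipy 1.17.1 and pandas 2.3.3 were used. Promoters came from RefSeq.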

Additional observations from a re-analysis of the deposited data

Results flagged for a closer look

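In the CD45-positive libraries, which the comparisons above do not use, 4 of 5415 barcodes at 0 Gy met the venous rule (0.0739%), above the 0.0554% that a count of 0 allows, and 1 of 9608 did at 4 Gy. Of the 4 barcodes, 2 had 2 or more leukocyte genes.

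Several named genes had ratios of 4 Gy over 0 Gy on opposite sides of 1 in venous and capillary cells, and the difference was not tested. Above 1 in venous cells were Tff2 at 8.17 (capillary 0.275), Scgb3a1 at 7.90 (0.259), Mki67 at 5.97 (0.171), Saa3 at 3.68 (0.0969) and Fabp4 at 2.56 (0.224). Scgb3a1 rested on 2 and 18 venous counts, with a counting interval of 1.89 to 70.2. Ccl21a, with 0 counts at 0 Gy and 25 at 4 Gy, was also above 1 (capillary 0.543). Its ratio was 7.32 with 3 counts in place of the 0, and its counting interval began at 5.52. All counts of Tff2 lay in 1 cell at each dose, as did 96.0% of Ccl21a, 97.0% of Saa3 and 73.5% of Mki67 at 4 Gy. Without the members with another cell's markers, Mki67 had 4 counts at 0 Gy and 0 at 4 Gy and Tff2 had none, while Fabp4 had a ratio of 2.27, with 73.9% of its 0 Gy counts in all members and 35.8% of those at 4 Gy in 1 cell. Below 1 in venous cells were Mt1 at 0.205 (capillary 4.27) and Cbr2 at 0.247 (2.29), with 88.3% and 75.0% of their 0 Gy counts in 1 cell, and Cbr2 had 3 and 9 counts, a ratio of 2.41 (0.601 to 13.8), without the members with another cell's markers.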

How the results depend on the processing

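With 1 library per dose, every difference between the doses is one between 2 libraries, and intervals cover counting error only. No paired analysis was possible because each group has 1 library, so that the doses share fewer than 2 replicate numbers, and leaving out a replicate could not be run for the same reason. The ratio of the venous share at 4 Gy over 0 Gy, 1.28, was 1.08 with at least 3 venous genes required, 1.04 with the rule without Vwf and 1.02 without Prss23. In alternatives chosen after seeing the data it was 1.0 for members with Slc6a2, Vcam1 or Selp, and 0.989, the opposite direction, for those of them without markers of another cell, while the first of these subsets had 1.28 (0.898 to 1.83) with cells thinned to 1000 UMIs. The higher genes, 1177 of 9529 (12.4%), were 400 of 3104 (12.9%) with thinned cells, 759 of 4456 (17.0%) with at least 3 venous genes, 663 of 4979 (13.3%) in the subset with the 0.989 and 522 of 6352 (8.22%) with at least 50 counts required. The lower genes, 821 (8.62%), were 402 (13.0%) with thinned cells, 525 (11.8%) with at least 3 venous genes, 1354 of 11488 (11.8%) with at least 10 counts and 320 (5.04%) with at least 50. Fewer genes were tested in each of these but that with at least 10 counts. Scaling by the median of ratios gave 1026 higher and 943 lower, and mean CPM per cell 1292 and 1011. The p53 target median of 1.17 was 2.20 after thinning, with 9 genes measured, and 0.567 with a pseudocount of 50. The interferon list median was 0.059 with the rule without Vwf. The cause of these shifts was not tested.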

Other observations

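Of the D-type cyclins, which act in G1, Ccnd1 and Ccnd2 passed the 1.5-fold limit at 4 Gy in venous cells and Ccnd3 did not: Ccnd1 was at 72.1 CPM at 0 Gy and 149 at 4 Gy, a ratio of 2.06 (1.54 to 2.79), and Ccnd2 at 78.6 and 128, a ratio of 1.62 (1.21 to 2.19), while Ccnd3 was at 68.8 and 88.2, a ratio of 1.28 (0.92 to 1.8). In capillary cells the ratios were 1.39, 1.43 and 1.84. Of 13 measured proliferation genes 5 were at least 1.5-fold higher (against 12.4% of all genes) and 0 lower (against 8.62%). Without members with another cell's markers 3 of 10 were higher (against 12.1%) and 0 lower (against 8.17%). The mitotic marker Mki67 had 5 counts and 34, of which 4 and 0 remained without those members.

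MHC class I genes were all measured, 15 of 15, with 0 higher (against 12.4% of all genes) and 1 lower (against 8.62%). Their median log2 ratio was -0.216. H2-K1, a classical class I heavy chain, was at 4859 CPM at 0 Gy and 4168 at 4 Gy, and H2-D1 at 5473 and 4711. The light chain B2m stood at 2112 and 2009. Oxidative stress and heat shock lists gave 1 of 11 genes higher (against 12.4%) and 1 lower (against 8.62%) each, with medians of -0.102 and 0.018. Without members with another cell's markers these were 2 higher and 0 lower of 9, and 1 higher and 0 lower of 11. The shares over all genes were then 12.1% and 8.17%, and the list medians 0.016 and 0.023. Of 10 genes of NF-κB feedback, 1 was higher (against 12.4%) and 2 were lower (against 8.62%). The higher one was Tnfaip3, which encodes the inhibitor A20, with 9 counts at 0 Gy and 24 at 4 Gy, a ratio of 2.34 (1.05 to 5.72). Without members with another cell's markers 2 of 9 were higher (against 12.1%) and 2 lower (against 8.17%). Tnfaip3 then had a ratio of 3.69 (1.37 to 12.4). The main inhibitor Nfkbia stood at 569 and 632 CPM.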
